A study of Mus musculus with 2 samples.

Results

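The G2 and mitosis genes are 46 genes whose products drive a cell from the end of DNA replication through division. They were taken from a given list of names and made up 46 of the 31053 genes in the count matrix; all 46 were found by symbol. They were measured in corneal epithelial cells of CycB1-GFP mice, a line in which green fluorescent protein reports Cyclin B1 and so marks cycling cells. There was 1 group of 2 samples with this genotype, and no GFP-negative or wild-type sample was analysed here, so every level below is a level inside a sort for the reporter. Only live GFP+ cells of the peeled epithelium entered the 10x Genomics 3′ libraries. The labels give no age, sex, strain background, treatment or promoter for the reporter. They do not say how many corneas were joined in a sample, and do not state that the samples came from separate animals. The main test below compares classes of cells and takes out the shift shared by all classes of a sample. Its p-values set the differences between classes against how far class differences vary between the 2 samples, a variation that may be technical. This variation is estimated for each gene over all classes together and drawn toward that of other genes. It is therefore not the variation of the 1 difference tested.

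Cells enter mitosis when the kinase Cdk1, bound to cyclin B, becomes active. Polo and Aurora kinases then build the spindle, kinetochores tie chromosomes to it, the spindle checkpoint holds the anaphase-promoting complex until all are attached, and that complex with Cdc20 and Ube2c marks cyclin B and securin for destruction. Many of these genes are held silent in resting cells and switched on together late in the cycle, through promoters that carry a CHR element (cell cycle genes homology region), bound by MuvB complexes, and CCAAT boxes, bound by NF-Y. In the cornea the epithelium is renewed from stem cells at the limbus, its rim, which carry Krt15 and, in part, Gpha2; the differentiating corneal layers carry Krt12, and the neighbouring conjunctiva carries the mucosal keratins Krt4, Krt13 and Krt19.

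The promoter windows of RefSeq (build GRCm38.p6, 250 bases before to 50 after each annotated start) were available for 40 of the 46 genes, in 45 windows, some of which are overlapping starts of 1 gene. Aurkb, Cdc25c, Cdca2, Dlgap5, Smc4 and Tpx2 were not matched. The stretches printed here are the 120 bases before the start, read 5′ to 3′ in the direction of the gene, with CHR and CCAAT matches in capitals; Cdc20 and Psrc1 are shown because they separate the keratin classes described below, Ube2c because its raw UMIs have the highest mean correlation with those of Ccnb1, Cdk1 as the central kinase, Hmgb2 as the most abundant chromatin gene, and Birc5 as a window with no match.
Cdc20, chr4:118437344-118437463 on the minus strand: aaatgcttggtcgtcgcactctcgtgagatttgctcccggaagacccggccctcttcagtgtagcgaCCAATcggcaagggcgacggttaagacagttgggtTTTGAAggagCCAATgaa
Ube2c, chr2:164769809-164769928 on the plus strand: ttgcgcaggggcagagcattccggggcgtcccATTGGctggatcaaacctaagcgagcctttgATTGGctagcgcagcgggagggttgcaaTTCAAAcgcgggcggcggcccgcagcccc
Psrc1, chr3:108383718-108383837 on the plus strand: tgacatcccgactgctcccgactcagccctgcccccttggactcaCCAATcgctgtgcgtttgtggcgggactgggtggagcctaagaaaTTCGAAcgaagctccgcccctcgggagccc
Cdk1, chr10:69352913-69353032 on the minus strand: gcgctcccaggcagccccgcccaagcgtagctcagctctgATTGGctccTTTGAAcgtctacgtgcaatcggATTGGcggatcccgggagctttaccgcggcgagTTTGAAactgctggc
Hmgb2, chr8:57511723-57511842 on the plus strand: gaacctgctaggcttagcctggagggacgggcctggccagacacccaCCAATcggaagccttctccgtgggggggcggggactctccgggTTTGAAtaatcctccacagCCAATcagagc
Birc5, chr11:117849117-117849236 on the plus strand: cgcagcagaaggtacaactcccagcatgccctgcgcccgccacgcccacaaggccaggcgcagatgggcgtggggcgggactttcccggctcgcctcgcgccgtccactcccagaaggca
The Cdc20 stretch carried TTTGAA between CCAAT boxes, Psrc1 carried the variant TTCGAA, and Ube2c carried TTTGAA on the opposite strand, where it reads TTCAAA. Cdk1 carried it at 2 places. The motifs searched were TTTGAA and TTCGAA for the CHR and CCAAT, each on both strands. No match overlaps another in the stretches shown, although CCAAT boxes on opposite strands can. A CHR match was found in 73.3% of the members' windows and in 19.2% of the 32851 windows of all genes in the table, a CCAAT match in 80.0% and 37.4%, and both in 64.4% and 7.53%. Of 44 CHR matches in the members' windows, 30 (68.2%) began within 50 bases of the start, against 25.2% of the 7260 matches in all windows. A match is a run of letters and not a measured binding site, and the list of members was drawn from known cell cycle genes, for which such promoters are known.

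**Figure D1:**
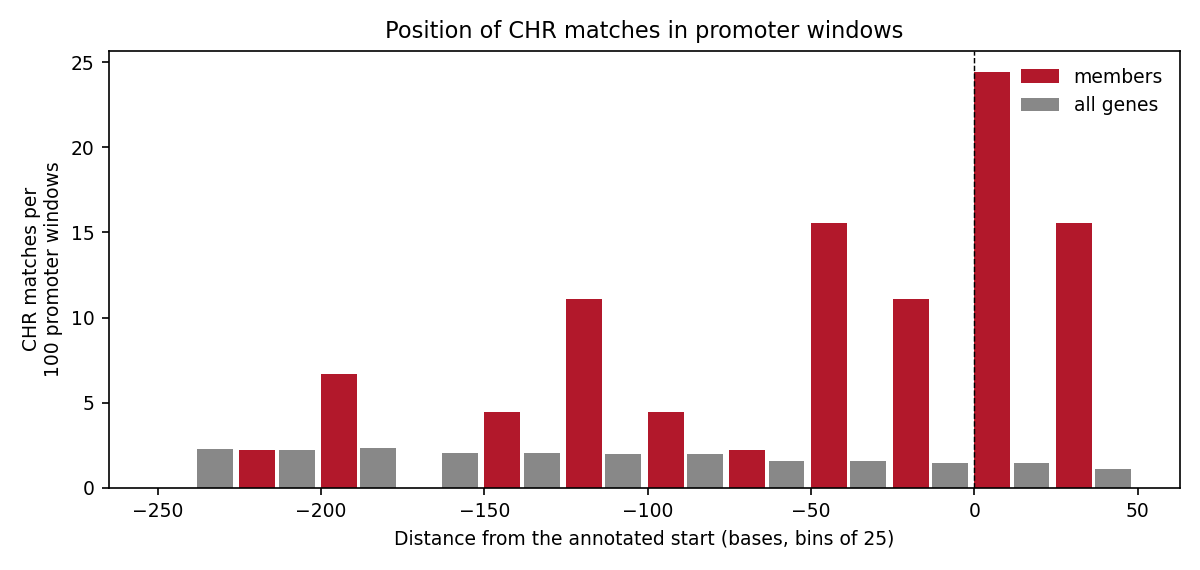
CHR matches (first base of TTTGAA or TTCGAA, both strands) per 100 promoter windows, y axis, by distance from the annotated start in bins of 25 bases, x axis, for the 45 windows of the members (red) and all 32851 windows (grey). The members' tallest bin, at 24.4 matches per 100 windows, lies just after the start, where all windows have 1.44.

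The matrix held 6752 barcodes. Cells with at least 500 genes and under 20% mitochondrial UMIs were kept, 3187 in library 1 and 3001 in library 2, and the median cell held 5571 and 5886 UMIs. A UMI (unique molecular identifier) stands for 1 captured RNA molecule. Only 5 barcodes occurred in both libraries, and doublets were not removed, since the caller marked 5 cells, 0.0808%, too few to have worked. Each cell was placed in a class by its UMIs of Krt12 and Krt15 where these came to at least 5. Cells with a Krt12 share above 0.8 are called corneal (2304 and 1821 cells in libraries 1 and 2) and those between 0.4 and 0.8 mixed (161 and 164). Cells under 0.4 were split into Gpha2-positive (at least 2 Gpha2 UMIs, 294 and 450 cells), mucosal keratin (at least 3 UMIs of Krt4, Krt13 and Krt19, 120 and 158), cells that met both limits (110 and 244), and Krt15-dominant cells with little Gpha2 (139 and 107). The other 59 and 57 cells had too few keratin UMIs. These names repeat the limits. The Gpha2 and mucosal keratin limits are UMI counts, so the class of a cell depends in part on its depth. Cells were also thinned to an equal number of UMIs, which left out shallower cells, and classed again. The Krt15-dominant class then held 269 and 253 cells and the Gpha2-positive class 182 and 368. The class that met both limits held 19 and 51, and the mucosal keratin class 96 and 168. CPM are UMIs scaled to a total of 1000000 UMIs in each library or class. The 7 conjunctival markers summed to 6248 and 8897 CPM in the mucosal keratin class and to 1795 and 873 in the corneal class. Krt4, Krt13 and Krt19, which set the mucosal keratin class, are among these 7, so part of the gap follows from the limits. The goblet cell mucin Muc5ac, also among them, had no UMI in either class.

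The members were abundant in these sorted cells. Together they took 1.24% of all UMIs in library 1 and 1.33% in library 2, with a median of 65 and 72 member UMIs per cell. Single members ranged from 13.8 CPM for Gtse1, a microtubule-binding protein, to 1460 for the tubulin Tubb4b, with a median of 189 (mean of both libraries). Hmgb2, a chromatin protein that bends DNA, was close to it with 1455. Because 3′ libraries count ends of transcripts, these levels do not grow with gene length. Of the roles, chromosome structure and chromatin (8 genes) had the most RNA, 4026 and 4344 CPM, led by Hmgb2 and lowest for Ncapd2, a condensin subunit. Spindle microtubule genes (11 genes) had 2702 and 3025, led by Tubb4b. Kinetochore and checkpoint genes (8 genes) had 1368 and 1512, with Cenpf highest and the checkpoint kinase Ttk lowest. The ubiquitin ligase genes (3 genes) had 1030 and 1160, with Ube2c highest and Cdca3 lowest. The kinase Cdk1 with its partners Cks1b, Cks2 and Cdc25c had 995 and 967, with Cks2 highest and Cdc25c, the phosphatase that activates Cdk1, lowest. The chromosomal passenger genes had 821 and 861 (Birc5 highest, Aurkb lowest), the nuclear envelope genes 731 and 745 (Tmpo highest, Lbr lowest), the cytokinesis genes 417 and 459 (Anln highest, Gas2l3 lowest), and the spindle pole kinases 264 and 265 (Plk1 highest, Nek2 lowest). How reads shared with paralogs or processed pseudogenes were assigned is not given in the sources used here, which leaves Tubb4b, Hmgb2, Cks2 and Cks1b less certain than the rest.

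The libraries differed a little. Of the 46 members, 37 had a higher level in library 2, beside 62% of the 9390 genes tested below. Counting intervals (exact Poisson, 95%) did not overlap between the libraries for 30 members, 28 of them higher in library 2, beside 36.4% and 24.4% of the genes tested. Intervals narrow with level, and the median level was 189 CPM for the members and 27.9 for the genes tested. The median log2 ratio of library 2 to library 1 was 0.14 over the members and 0.07 over those genes. Each library is 1 sample, so this difference has no test. Counting intervals throughout cover counting error only.

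Ccnb1, the gene of Cyclin B1, gives an order of the members that none of the keratins enter. The labels do not say whether Ccnb1 RNA follows the reporter. Across the 3187 and 3001 cells, every member's raw UMIs correlated positively with those of Ccnb1, with a median Pearson r of 0.38 (mean of both libraries). Raw UMIs also rise with the depth of the cell, and the same values over all genes are not given here. Ube2c, the ubiquitin-conjugating enzyme of the anaphase-promoting complex, had 0.63 in each library, the highest in library 1 and in the mean. Cenpf, a large kinetochore protein, had 0.61 in library 1 and 0.64, the highest, in library 2. Then came Cdc20 with 0.58 and 0.57, Tubb4b with 0.55 and 0.58, the centromeric histone Cenpa with 0.53 and 0.56, and the kinetochore motor Cenpe with 0.51 and 0.56. At the other end stood Gtse1 with 0.10 and 0.13, Ncapd2 with 0.12 and 0.18, the heterochromatin protein Cbx5 with 0.18 and 0.14, Ttk with 0.19 and 0.15, the checkpoint kinase Bub1 with 0.20 and 0.20, and Cdca2, which brings a phosphatase to chromatin, with 0.23 and 0.18. The points of each correlation share a library and the depth of the cell. Cells were therefore also thinned to 2000 UMIs, which left out 662 cells with fewer. The median r was then 0.13 and the highest, of Cenpf, was 0.33, with Ube2c at 0.32, while Cbx5 had −0.002. By role, the median raw r was highest for the ubiquitin ligase genes, 0.57, and lowest for the kinetochore and checkpoint genes, 0.22, a group that holds Cenpf and Cenpe near the top and Bub1 and Ttk near the bottom.

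The members' summed level also rose with Ccnb1. In cells with 0, 1, 2, 3 to 4 and 5 or more Ccnb1 UMIs, the members' share of all UMIs was 0.887%, 1.30%, 1.55%, 1.67% and 1.79% in library 1 and 0.958%, 1.40%, 1.63%, 1.92% and 2.08% in library 2. It rose at every step in each library. A list of 44 S phase genes, which act in DNA replication, went the other way, from 0.44% and 0.435% to 0.194% and 0.175%. Cdc20 had the steepest gradient, 4.86 times higher in library 1 and 4.82 times in library 2 in cells with 5 or more Ccnb1 UMIs than in cells with 0, followed in library 1 by Cenpf (4.15 and 4.68), Cenpa (4.09 and 4.43) and Ube2c (4.08 and 4.33). Gas2l3, a cytoskeletal linker of the division bridge, reached 3.74 and 4.54 at a level of only 54.2 and 64.3 CPM. The order by this ratio of the top bin to cells with 0 was not the order by correlation. Tubb4b, of rank 4 by r, reached only 1.86 and 2.14, and Cdc25c, of rank 32, reached 3.99 and 3.57. Cdk1 itself reached 1.90 and 1.78, Top2a, the enzyme that untangles sister chromatids, 1.44 and 1.33, and the proliferation marker Mki67 1.57 and 1.72. Cbx5 stayed level, with 1.04 and 0.999. The median over members was 1.97 and 2.13, and 34 and 35 of the 46 had their highest level in the top bin. No such count over all genes is given here. Median depth moved with the bins, from 4793 and 5038 UMIs in cells with 0 to 7753 and 7671 in the top bin; in thinned cells, with at least 2 Ccnb1 UMIs against 0, the median ratio was 1.78 and 1.83.

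**Figure D2:**
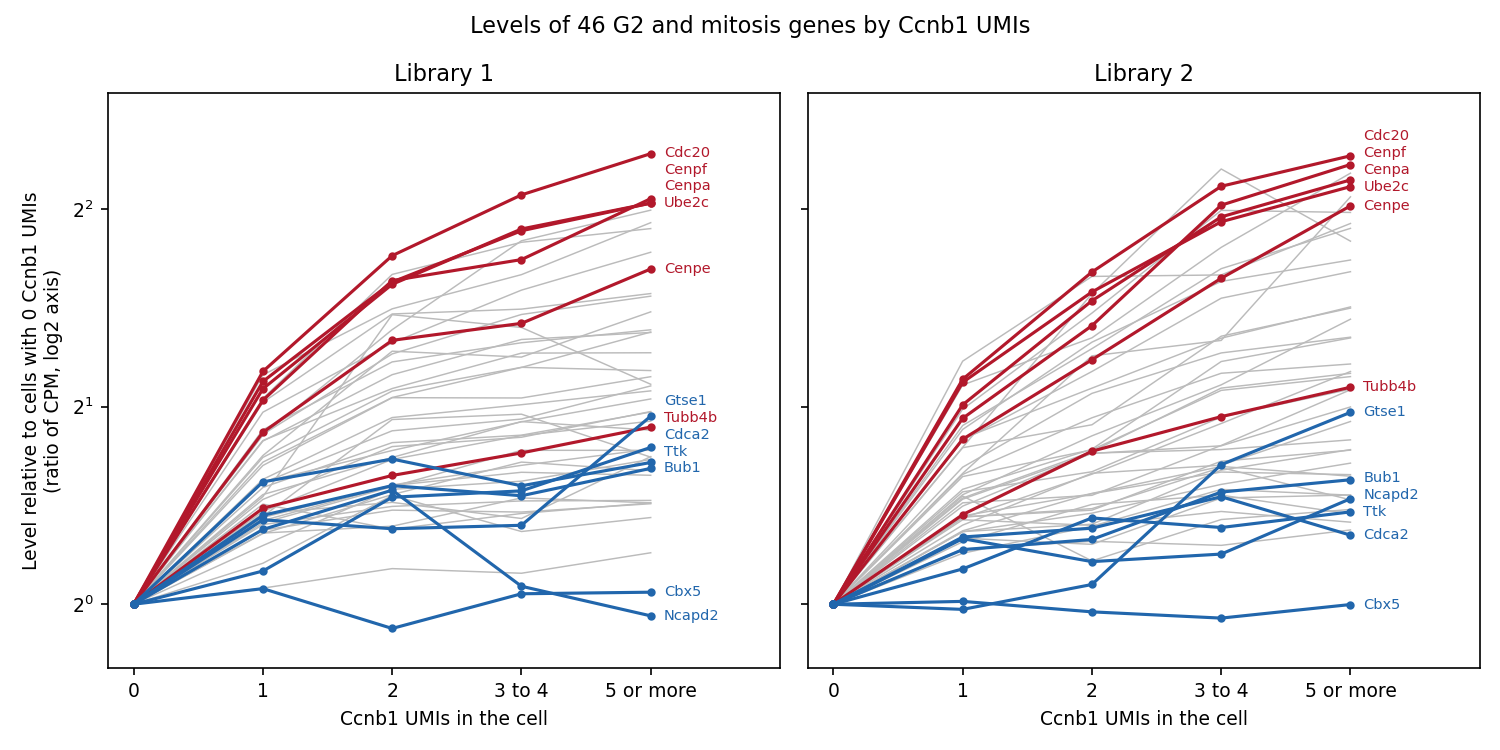
Level of each of the 46 members relative to cells with 0 Ccnb1 UMIs (ratio of CPM, y axis, log2 scale) against the Ccnb1 UMIs of the cell (x axis), by library. Grey lines are members, red the 6 with the highest and blue the 6 with the lowest correlation with Ccnb1; Cdc20 ends at 4.86 and 4.82 and Cbx5 at 1.04 and 0.999.

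Between members, the thinned counts of 1035 pairs had a median r of 0.08, and 81 pairs exceeded 0.2. Cenpf with Ube2c stood highest, 0.42 in library 1 and 0.45 in library 2, then Cenpf with Cdc20 (0.38 and 0.39) and Cdc20 with Ube2c (0.37 and 0.38). At 2000 UMIs the variance of Cenpf was 2.09 and 2.42 times its mean and that of Ube2c 2.08 and 2.15 times, where pure counting gives 1, and the median over members was 1.11. At low counts this ratio stays near 1 whatever the cells do: Cdc25c, with the changes across Ccnb1 bins given above, had 1.01 and 1.06. Against the S phase sum, thinned Ube2c had r = −0.38 in each library and Cenpf −0.38 and −0.36, while Tmpo had 0.01 and 0.05 and Cbx5 0.07 and 0.11. Outside the members and the other cell cycle genes listed, the 5 genes whose level followed the member sum most closely, among 5893 genes found in at least 10% of cells, were Arl6ip1 (r = 0.59 and 0.62 on log counts per 10000), which shapes the endoplasmic reticulum, Ube2s (0.47 and 0.51), the enzyme that extends the ubiquitin chains begun by Ube2c, Tubb5 (0.40 and 0.58), the histone H2afz (0.39 and 0.57) and the calmodulin gene Calm2 (0.48 and 0.46).

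By keratin class, the members' share of UMIs was highest in Gpha2-positive cells in library 1 and in Krt15-dominant cells in library 2, and near its lowest in corneal and mixed cells in each. It was 1.39% in library 1 and 1.58% in library 2 in Gpha2-positive cells, 1.27% and 1.78% in Krt15-dominant cells with little Gpha2, 1.28% and 1.35% in mucosal keratin cells, 1.26% and 1.32% in cells with both Gpha2 and mucosal keratins, 1.21% and 1.28% in mixed cells, and 1.22% and 1.28% in corneal cells. The Gpha2-positive class lay above the corneal class in each library. Its median cell was shallower, with 4640.5 and 4742.5 UMIs against 5784.5 and 6375, and had a higher mitochondrial share, 3.42% and 4.43% against 2.49% and 3.15%. The mitochondrial share was also higher in the Krt15-dominant class (3.44% and 4.64%) and the mucosal keratin class (3.90% and 4.32%); its part in the results was not tested. In its share of member UMIs, the Krt15-dominant class lay above the corneal class by far more in library 2. Its cells were shallow there (median 3015 UMIs against 4536 in library 1). Thinning to 2000 UMIs left out cells with fewer, so that 129 of 139 and 67 of 107 Krt15-dominant cells remained. The median cell then had 28 and 32 member UMIs in the Gpha2-positive class, 25 and 37 in the Krt15-dominant class and 23 and 25 in the corneal class. The spread of cells within a class was wider than these differences: the middle of the corneal cells ran from 14 to 34 member UMIs in library 1 and from 15 to 35 in library 2 (25th to 75th percentile). In the mucosal keratin class of library 2, 17.9% of 140 thinned cells had under 5 member UMIs, against 5.26% of 114 in library 1 and 4.27% and 5.06% of corneal cells.

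**Figure D3:**
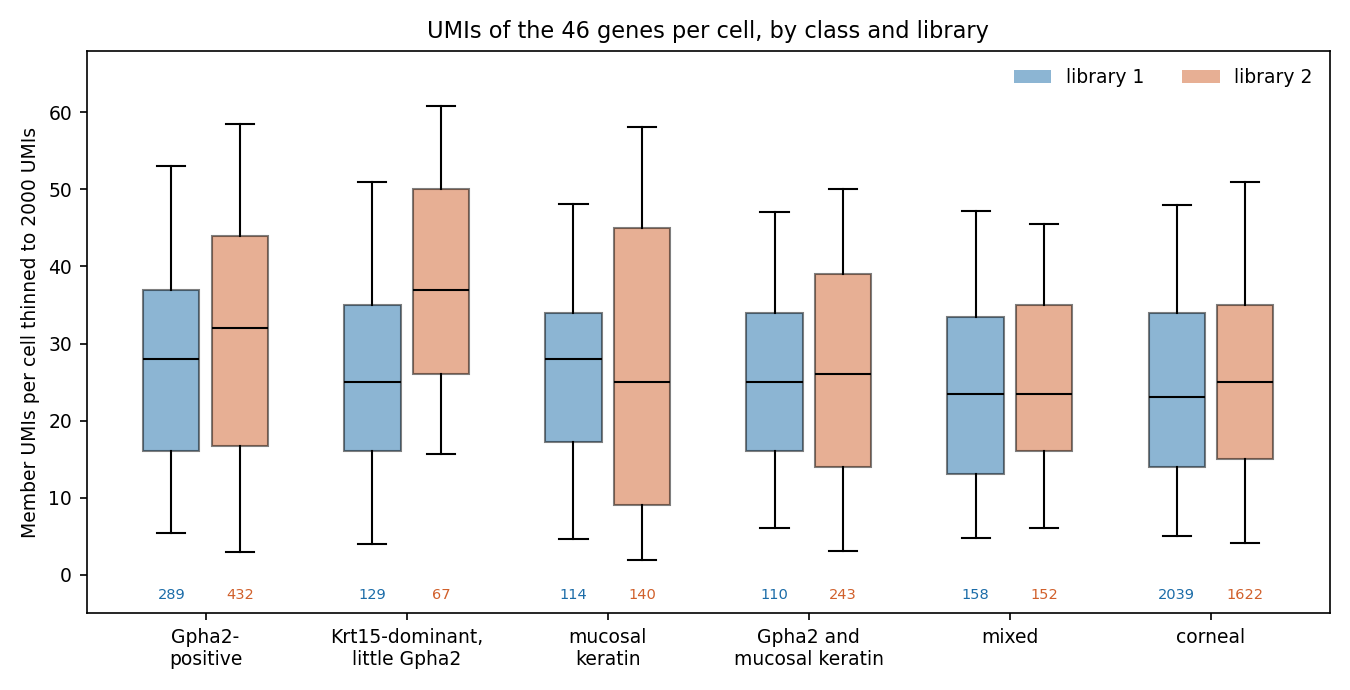
UMIs of the 46 members per cell after thinning to 2000 UMIs (y axis) by keratin class (x axis) and library; boxes span the 25th to 75th percentile with the median as a line, whiskers the 5th to 95th, and the numbers below are cells. Medians lie between 23 and 37, and the boxes of all classes overlap.

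The first comparison between classes asked which members differ between Gpha2-positive and corneal cells. Raw UMIs were summed per class and library, and all 9390 genes were tested with edgeR's quasi-likelihood test with library as a block. Of the 46 members, 15 were higher in Gpha2-positive cells and 0 lower (Benjamini-Hochberg adjusted p under 0.05), against 15.1% of all tested genes higher and 13.9% lower. The members and all genes were not matched for level, with medians of 189 and 27.9 CPM. The median log2 fold change was 0.21 over the members and 0.005 over all genes, and 38 members had a positive value. The sizes were modest, from 0.25 to 1.02.

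Psrc1 (chr3:108383839-108388231), a spindle protein that helps depolymerise microtubules, had 41.7 CPM in library 1 and 53.7 in library 2 in Gpha2-positive cells and 21.5 and 24.6 in corneal cells. The levels of the classes did not overlap between libraries, and the log2 fold change was 1.02 ± 0.16 (SE, edgeR adjusted p = 6.54e-06). It rests on 62 and 115 UMIs. Ect2 (chr3:27097222-27153878), the exchange factor that activates RhoA at the cleavage site, had 128 and 143 CPM against 67.9 and 72.3, a log2 fold change of 0.93 ± 0.11 (edgeR adjusted p = 5.43e-08). Cdc20 (chr4:118432901-118437352), the activator of the anaphase-promoting complex, had 339 and 491 CPM against 219 and 220, and a log2 fold change of 0.87 ± 0.12 (edgeR adjusted p = 1.85e-05). Corneal cells of the 2 libraries had almost the same Cdc20 level, while Gpha2-positive cells of library 2 lay above those of library 1. Its partner enzyme Ube2c, from the same step, had 650.0 and 706 against 639 and 715, so the levels of the classes overlapped (log2 fold change −0.02 ± 0.11, edgeR adjusted p = 0.91). It was called lower, at −0.32 ± 0.11 (edgeR adjusted p = 0.0378), when cells were thinned and the classes set from the thinned UMIs.

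By role, all 3 cytokinesis genes were higher: Ect2, Gas2l3 (log2 fold change 0.56) and the scaffold Anln (0.44). Of 11 spindle microtubule genes 4 were higher, Psrc1, Ckap2 (0.57), Hmmr (0.46) and Nusap1 (0.27), with Tubb4b at −0.12. Of the chromosomal passenger genes, Aurkb (0.38) and Birc5, known as survivin (0.30), were higher and Cdca8 was not called. Of the ubiquitin ligase genes, Cdc20 and Cdca3 (0.26) were higher, and of the spindle pole kinases Nek2, which splits the centrosomes (0.52), with Plk1 at 0.21 and Aurka at 0.10. Only Cenpa (0.51) of the 8 kinetochore and checkpoint genes passed, and Cenpf, at 0.37 ± 0.21, did not (edgeR adjusted p = 0.27). Hmgb2 (0.49) and Mki67 (0.25) were the chromatin genes called. None of the 4 genes of the Cdk1 engine passed, with Cdk1 at 0.25 ± 0.10 (edgeR adjusted p = 0.06), nor did Tmpo, Lbr and Rangap1 of the nuclear envelope. The 31 members not called ranged from −0.17 to 0.37.

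All 15 had the same sign in each library, and for 12 library 2 gave the larger value. For 6 the libraries differed by more than 0.3, a limit chosen after the values were seen: taken alone, library 1 gave 0.59 for Cdc20, 0.07 for Mki67, 0.18 for Hmmr, 0.20 for Aurkb, 0.33 for Nek2 and 0.74 for Gas2l3, where library 2 gave 1.15, 0.42, 0.70, 0.53, 0.64 and 0.39. DESeq2 called 7 of the 15, the fit without the library block 5, and cells thinned to 2000 UMIs 8 of 45 members tested; Psrc1, Ect2, Cdc20 and Hmgb2 passed under each of the 10 alternatives run, while Cdca3 and Nusap1 passed under 1 each (adjusted p up to 0.556 and 0.508) and Mki67 under 3 (up to 0.364). Aurkb passed under 5, Nek2 under 6 and Gas2l3 under 7 (adjusted p of edgeR or DESeq2 up to 0.231, 0.676 and 0.773). The log2 fold change fell as low as 0.18 for Nek2 and 0.11 for Gas2l3 under these alternatives. With a mitochondrial limit of 10%, 13 of the 15 were called. The 7 immune markers summed to 1.34 CPM in library 1 and 62.2 in library 2 in Gpha2-positive cells, against 0.506 and 2.34 in corneal cells, with Ptprc, Cd52, Fcer1g and Laptm5 at 0 in the Gpha2-positive class of each library; their part in the result was not tested.

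**Figure D4:**
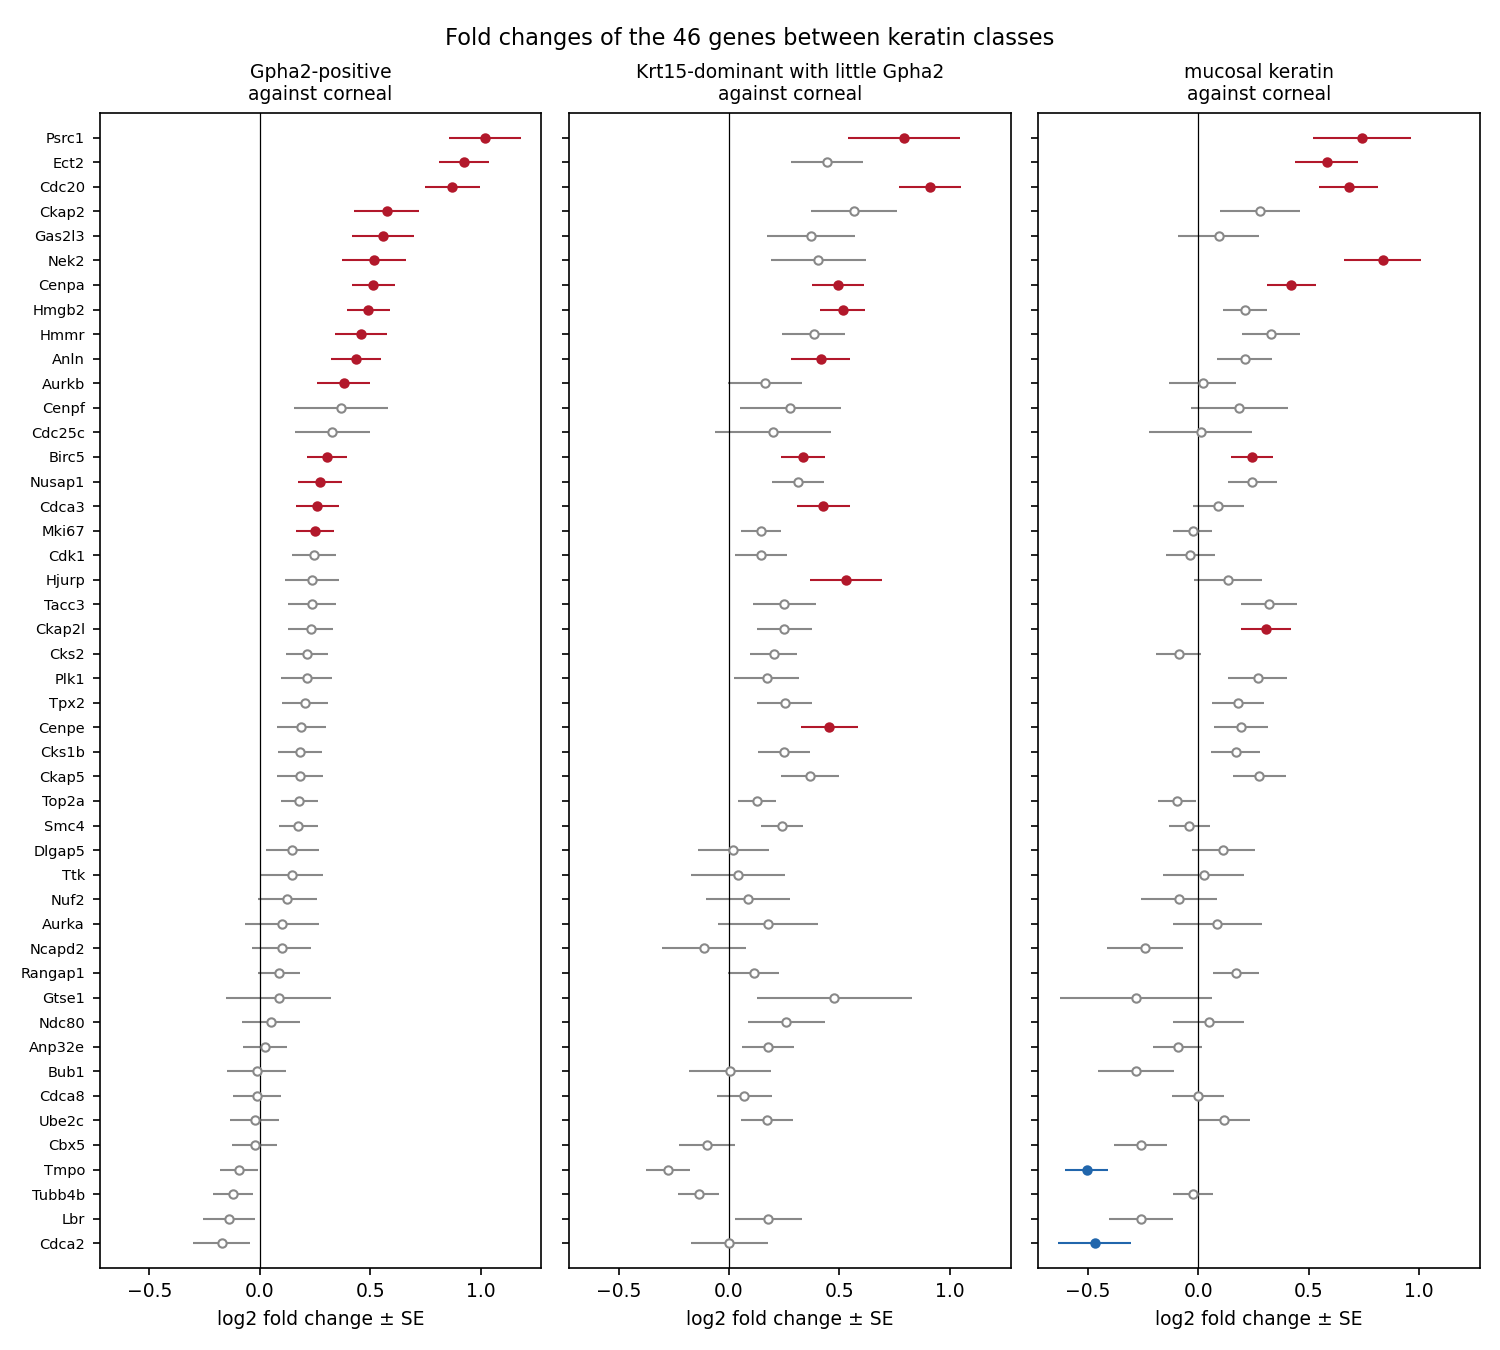
Log2 fold change ± SE (x axis) of each of the 46 members (y axis, ordered by the first panel) in 3 keratin classes against corneal cells; filled red points were higher and filled blue points lower at an adjusted p under 0.05, open points were not called. The panels hold 15, 9 and 9 called members and share the corneal cells as reference.

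Ccnb1 itself was not called in this comparison: it had 197 and 200.5 CPM in Gpha2-positive cells and 172 and 160 in corneal cells (log2 fold change 0.24 ± 0.10, edgeR adjusted p = 0.09). In a comparison chosen after the data were seen, only cells with at least 1 Ccnb1 UMI were summed, 148 and 211 Gpha2-positive and 1086 and 827 corneal cells. There 11 members were higher, all among the 15, and 0 lower, beside 1023 higher and 956 lower of all 8328 genes tested. Psrc1 had 49.4 and 79.5 CPM against 30.3 and 35.5 (log2 fold change 0.94). Ect2 had 152 and 194 against 92.6 and 96.0 (0.85), and Cdc20 had 460 and 714 against 324 and 329 (0.80). In each of these 3 genes both Gpha2-positive levels lay above both corneal levels among cells with Ccnb1 RNA. These are levels of whole libraries and not of single cells, and the share of all genes for which this holds is not given here.

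Of 56 further G2 and mitosis genes listed beside the members, 55 were tested, and 19 were higher and 0 lower in Gpha2-positive cells, with a median of 0.23. The largest were Pimreg, a mitotic regulator of the metaphase to anaphase step (1.07 ± 0.18, edgeR adjusted p = 9.39e-05), Mybl2, the B-Myb factor of the MuvB complex (0.69), G2e3 (0.66), the checkpoint protein Mad2l1 (0.59), Depdc1a (0.58) and the phosphatase Cdc25b (0.55). Of the 44 S phase genes, 2 were higher and 5 lower, with a median of −0.05.

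Krt15-dominant cells with little Gpha2 were set against the same corneal cells. Here 9 of the 46 members were higher and 0 lower, beside 8.3% of all genes higher and 7.25% lower, and the members' median log2 fold change was 0.24, against 0.001 over all genes. This comparison shares its corneal sums with the one above, and the members and all genes were again not matched for level. Cdc20 had 329 and 553 CPM (log2 fold change 0.91 ± 0.14, edgeR adjusted p = 0.00012) and Psrc1 29.9 and 57.2 (0.79 ± 0.25, edgeR adjusted p = 0.0277). Of the kinetochore genes, Hjurp, the chaperone that loads Cenpa, had 86.6 and 106 CPM against 56.5 and 75.8 (0.53), Cenpa 214 and 305 against 166 and 185 (0.49), and Cenpe was higher by 0.45. The others called were Hmgb2 (0.52), Cdca3 (0.43), Anln (0.42) and Birc5 (0.33). Ect2, at 83.6 and 117, had a log2 fold change of 0.44 ± 0.16 (edgeR adjusted p = 0.0628).

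Much of this came from library 2. There the log2 fold change was 1.30 for Cdc20, 1.16 for Psrc1, 0.82 for Hmgb2, 0.80 for Cenpe, 0.79 for Anln, 0.68 for Cenpa and 0.47 for Birc5, while library 1 alone gave 0.55, 0.43, 0.21, 0.14, 0.05, 0.32 and 0.22; for Hjurp (0.58 in library 1 and 0.45 in library 2) and Cdca3 (0.39 and 0.48) the libraries were close. Of the 9 calls, Cdc20 passed under each of the 9 alternatives run with a test, Hjurp under 2 (adjusted p up to 0.476), Cdca3, Anln and Birc5 under 3 each (up to 0.171, 0.482 and 0.164) and Psrc1 under 4 (up to 0.449). Library 2 contributed 107 cells, with immune markers at 65.4 CPM, Ptprc, Cd52, Tyrobp, Fcer1g, Lyz2 and Laptm5 at 0 and so Cd74 alone detected, against 5.97 in library 1; its part in the result was not tested. DESeq2 called 3 members, the fit without the library block 1, Cdc20, and thinned cells 4 higher and 1 lower, Tmpo (−0.48). Where the classes were also set from thinned UMIs, the Krt15-dominant class held 269 and 253 cells. There 12 members were higher, Ect2 (0.94) among them, but only 5 of the 9. Of the further G2 and mitosis genes 8 were higher and 1 lower, the highest being Pimreg (1.13), Ska1 of the kinetochore (0.96), G2e3 (0.80), the motor Kif20a (0.69) and Jpt1 (0.60), and the lower one the checkpoint protein Bub3 (−0.42).

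Gpha2-positive and Krt15-dominant cells were also set against each other. No member was called by edgeR (0 of 46), beside 0.149% of all genes higher and 0.298% lower; 1 member, Ect2, had an unadjusted p under 0.05 (log2 fold change 0.48 ± 0.17, edgeR adjusted p = 0.327), and DESeq2 called 0 with 1 at an unadjusted p under 0.05. With only 42 genes called in all, the comparison could show little. These classes are parted only by the limit on Gpha2 UMIs, so the depth of a cell affects its class.

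Mucosal keratin cells gave a mixed picture. Against corneal cells 7 members were higher and 2 lower, beside 15.7% of all genes higher and 12.5% lower. The members were thus called higher about as often as all genes, and lower less often. Their median level was 189 CPM, against 27.9 for the genes tested. The median log2 fold change was 0.10 over the members and −0.004 over all genes. Nek2 (chr1:191821444-191833050) was highest, with 67.1 CPM in library 1 and 80.6 in library 2 against 38.7 and 45.0 (log2 fold change 0.84 ± 0.17, edgeR adjusted p = 0.0003). Psrc1 had 37.0 and 39.7 against 21.5 and 24.6 (0.74), Cdc20 304 and 399 against 219 and 220 (0.68), Ect2 89.0 and 118 against 67.9 and 72.3 (0.58) and Cenpa 238 and 227 against 166 and 185 (0.42). In each of these both mucosal keratin levels lay above both corneal levels. The share of all genes for which this holds is not given here. Ckap2l of the spindle (0.30) and Birc5 (0.24) were also called higher, but passed under only 2 and 1 of the 10 alternatives (adjusted p up to 0.518 and 0.292).

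The 2 members that were lower act on chromatin and the nuclear envelope. Tmpo (chr10:91147571-91181315), whose LAP2 proteins bind lamins and chromatin, had 319 and 295 CPM against 420 and 461 in corneal cells (log2 fold change −0.51 ± 0.10, edgeR adjusted p = 0.000114), and in cells with both Gpha2 and mucosal keratins it had 333 and 313. Cdca2 had 50.7 and 63.8 against 71.6 and 88.8 (−0.47 ± 0.17, edgeR adjusted p = 0.0305). Cbx5 and Lbr each had −0.26 and were not called. Beside these values, 29 of the 44 S phase genes were lower and 0 higher, with a median of −0.65; the other 15 were not called, and E2f8 had 0.25. Among the lower were the ribonucleotide reductase subunit Rrm2 (−0.94) and the replicative helicase genes Mcm2 (−0.91) and Mcm4 (−0.98). S phase genes took 0.245% and 0.229% of UMIs in mucosal keratin cells and 0.348% and 0.369% in corneal cells. Of the further G2 and mitosis genes 4 were higher, Cdc25b (0.98), Jpt1 (0.86), Pimreg (0.70) and securin, Pttg1 (0.48), and 3 lower, the condensin subunit Ncapd3 (−0.74), the Cdk1-inhibiting kinase Wee1 (−0.58) and Bub3 (−0.33).

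For Ect2, library 1 alone gave 0.39 and library 2 gave 0.74, and for Cdc20 0.47 and 0.90. Thinned cells left 2 of the 9 calls, Cdc20 higher and Tmpo lower, with Nek2 at 0.63 (edgeR adjusted p = 0.138), Ect2 at 0.36 and Psrc1 at 0.30, and without the library block 3 were higher and 1 lower. Among cells with a Ccnb1 UMI (64 and 70 mucosal keratin cells) 7 members were higher and 1, Tmpo, lower. Of all 8328 genes tested there, 907 were higher and 801 lower. Of these 8 member calls, 7 were shared with all cells, and Nek2 had 88.2 and 127 CPM against 50.95 and 61.0.

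**Figure D5:**
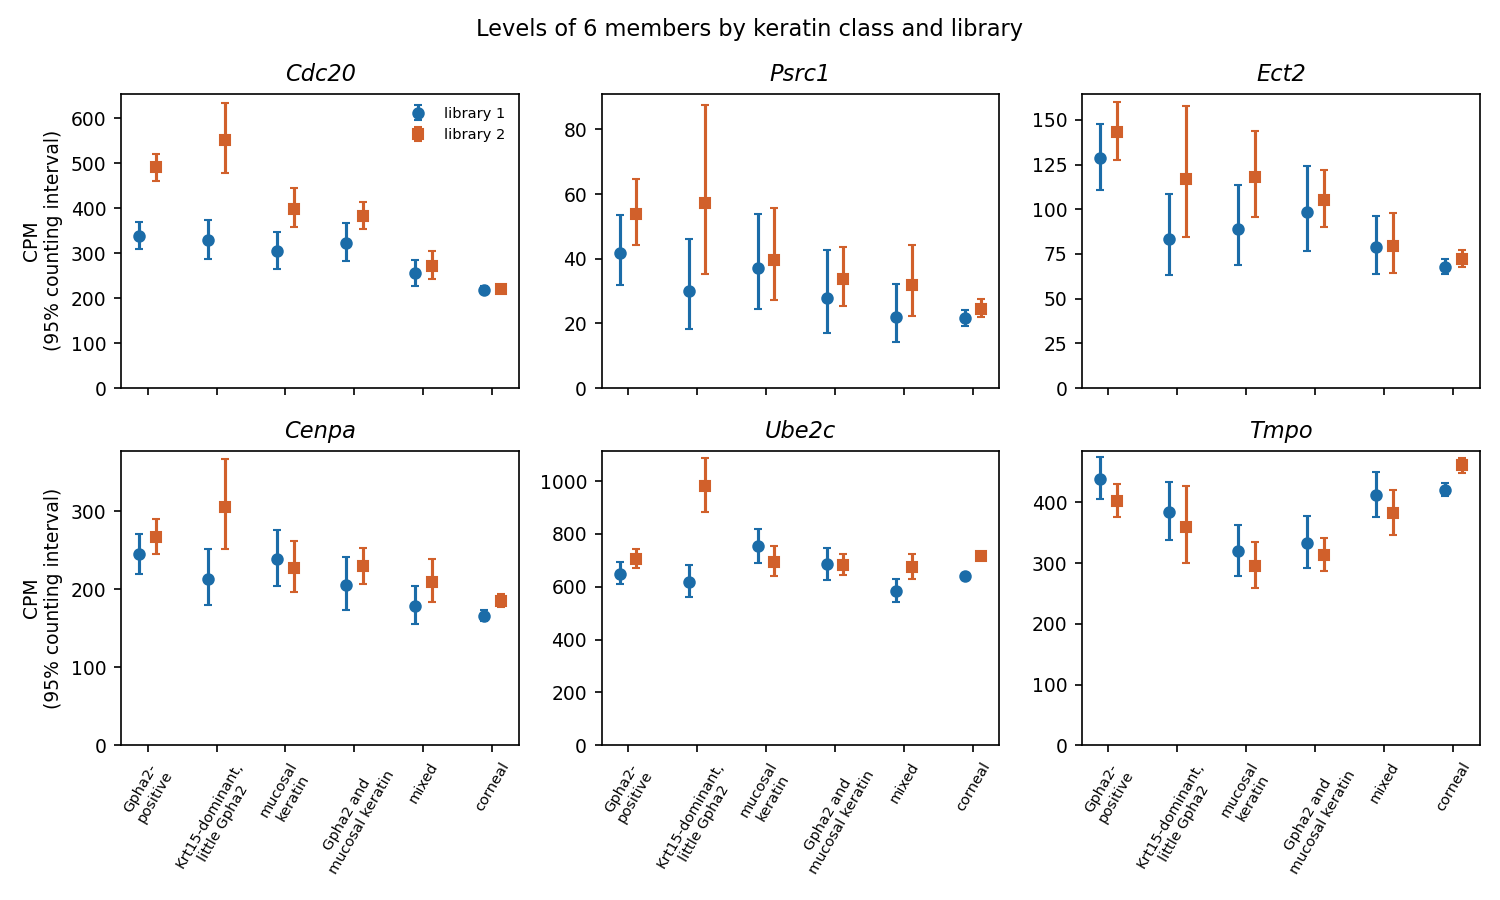
CPM (y axis) of 6 members by keratin class (x axis), library 1 as circles and library 2 as squares, with 95% Poisson intervals that cover counting error only. Cdc20 lies above its corneal level of 219 and 220 in every other class, Ube2c does so in some only, and Tmpo is lowest in the classes with mucosal keratins.

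In mixed cells, whose barcodes hold UMIs of both Krt12 and Krt15, the members were near their corneal levels. No member was called by edgeR (0 of 46), beside 4.78% of all genes higher and 2.95% lower; 1 had an unadjusted p under 0.05, Tubb4b (log2 fold change −0.19 ± 0.09, edgeR adjusted p = 0.261), and DESeq2 called 0 with 0 at an unadjusted p under 0.05. Members ranged from −0.25 (Aurka) to 0.24, with a median of −0.01, against 0.003 over all genes. Cdc20 had 256 and 272 CPM, above the corneal 219 and 220 in each library but not called. Among cells with a Ccnb1 UMI, 1 member was called, Tubb4b, which was lower (−0.28 ± 0.08, edgeR adjusted p = 0.0233). Of all 8328 genes tested there, 299 were higher and 181 lower.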

How the data were processed

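Single-cell 3′ RNA libraries of sorted cells were analysed, 2 samples of 1 group. The authors deposited whole-number UMI counts per gene and barcode. Per the submitters' processing notes, Cell Ranger 3.1.0 and Seurat 5.0.0 were used with GRCm38/mm10; which step each served is not given in the sources used here. The barcode suffix was taken as the library, with no link to the labelled replicate. The rest was computed here (Python 3.11.15, scanpy 1.11.5, R 4.3.3). The members and gene lists were chosen with earlier results of these data known.

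Kept cells had at least 500 genes and under 20% mitochondrial UMIs (library totals 18773893 and 17796678 UMIs). UMIs were summed for 6 classes in each library and tested with edgeR 4.0.16 (quasi-likelihood, robust, TMM, filterByExpr, library as a block), with Benjamini-Hochberg adjustment over 9390 genes and a threshold of 0.05; the SE is the fold change divided by the root of its F value. The library block joins sums that come from the same sample. DESeq2 1.42.0, other filters and thinning to 2000 UMIs were alternatives. All called members are named, with the 6 highest and 6 lowest by correlation with Ccnb1, the extremes of each role, up to 6 called genes of the further list and the 5 genes most like the member sum; S phase examples and uncalled genes beside them were chosen after their values were seen. Gene coordinates are from GENCODE for GRCm38.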

Additional observations from a re-analysis of the deposited data

How the results depend on the processing

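Counts of called members depended on the fit. In Gpha2-positive against corneal cells (15 called), DESeq2 gave 7, thinned cells 8, and thinned cells with classes set from thinned UMIs 7 (6 higher, 1 lower). In Krt15-dominant cells with little Gpha2 (9 called), DESeq2 gave 3 and thinned cells 5. In mucosal keratin cells (9 called), thinned cells gave 2 and classes set from thinned UMIs 3. For mixed cells (0 called), cells with a Ccnb1 UMI gave 1, and for Gpha2-positive against Krt15-dominant cells (0 called) classes set from thinned UMIs gave 1. Without the replicate block, which pairs the classes of a library, the counts against corneal cells were 5 for Gpha2-positive, 1 for Krt15-dominant and 4 for mucosal keratin cells; the block changed no count in the other comparisons. Thinning leaves fewer UMIs, fewer cells and 45 members tested. For the other changes the cause was not tested. No filter on low counts moved the median log2 fold change of all genes to −0.11, −0.23 and −0.25 in the 3 comparisons against corneal cells. The other settings kept each count within 1.5 times. The median correlation with Ccnb1 was 0.28 on log counts and 0.13 after thinning, and 0.37 to 0.39 in 1 library alone. Of 495 tested values of named genes under these settings, 339 stayed past the threshold, 155 kept their direction and lost it, and 1 reversed, Pimreg in mucosal keratin cells with classes set from thinned UMIs (−0.14, edgeR adjusted p = 0.845). The Krt15-dominant class had under 50 cells with a Ccnb1 UMI in library 2, so that comparison was not run. Members at low counts, such as Gtse1, Psrc1 and Cdc25c, are limited by depth.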
